A study of Mus musculus with 8 samples.

Results

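The genes described here encode collagens, laminins and other proteins of the extracellular matrix, and the measurement is the accessibility of the chromatin around them in mouse mesoderm. The list holds 44 genes in 3 classes. The basement membrane class has 21 genes (Col4a1 to Col4a6, Lama1 to Lama5, Lamb1 to Lamb3, Lamc1, Lamc3, Nid1, Nid2, Hspg2, Col15a1 and Col18a1). The fibrillar matrix class has 16 genes (Col1a1, Col1a2, Col2a1, Col3a1, Col5a1 to Col5a3, Col11a1, Col12a1, Col14a1, Col6a1 to Col6a3, Fn1, Fbn1 and Fbn2). The other matrix class has 7 genes (Col8a1, Col13a1, Sparc, Tnc, Postn, Vcan and Hapln1). A region of open chromatin was counted with a gene when its midpoint lay inside the gene's mm10 span, or within 100 kb of it with no other protein-coding gene nearer. This gave 767 of the 168842 regions in the deposited table, 397 at basement membrane genes, 249 at fibrillar matrix genes and 121 at the other matrix genes. All 44 genes had a region, from 1 at Col4a5 to 44 at Col4a1. The farthest member region lay 97.7 kb from Col1a2, at 47.6 and 51.2 (WT DP), 35.6 and 45.6 (WT SP), 58.8 and 65.4 (KO DP) and 59.1 and 42.0 (OE SP) normalized reads. The nearest one left out lay 102 kb from Col8a1, at 1.94 and 1.80 (WT DP), 12.2 and 13.9 (WT SP), 1.68 and 5.94 (KO DP) and 77.3 and 72.3 (OE SP). The nearest gene need not be the gene that a region acts on, and regions of the same gene share its neighbourhood, so they are not replicates.

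Mouse embryonic stem cells were differentiated as embryoid bodies, clumps that form early germ layers, and live cells were sorted at day 4 on the surface receptors PDGFRalpha and FLK1 (the protein of Kdr). WT DP cells (PDGFRalpha+FLK1+) and WT SP cells (PDGFRalpha-FLK1+) were of the A2lox.Cre stem cell line, KO DP cells (PDGFRalpha+FLK1+) were of an Etv2 knockout line, and OE SP cells (PDGFRalpha-FLK1+) were of the iETV2 line given doxycycline at 2 µg/ml from day 2.5 to induce Etv2. The labels name no doxycycline for the other 3 groups. Each of the 4 groups has 2 libraries. The assay was ATAC-seq, in which the Tn5 transposase cuts and tags open DNA, and values are the authors' normalized reads per region. KO DP and OE SP each come from a line of their own, so the Etv2 state, the doxycycline and other properties of the line cannot be told apart. Whether the 2 libraries of a group are separate cultures is not given, and p-values reflect the spread of these libraries alone, be it technical or not. In sorted bulk cells, fewer cells with an open region and less opening in each cell cannot be told apart.

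As background, the basement membrane is a thin sheet under epithelia and around vessels and muscle. It is built on a laminin network and a type IV collagen network, which nidogens and the proteoglycan perlecan (Hspg2) hold together. Interstitial matrix is instead built on fibrils of type I, III and V collagen, on type VI collagen filaments, on fibronectin and on fibrillin microfibrils, and is the typical product of mesenchymal cells. Etv2 is a transcription factor of the ETS family needed in mouse embryos to form endothelial and blood cells, and endothelial cells lay down a basement membrane of type IV collagen and laminin. ETS factors bind DNA around the core letters GGAA.

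Promoter sequences are printed here for the genes whose promoter the results below turn on. They run from 250 bases before to 50 after the annotated start, in the direction of the gene, from RefSeq on GRCm38.p6, the assembly that mm10 names. Of the 44 genes, 30 had a promoter in the RefSeq table, with 35 windows in all. The motifs CCGGAA and CAGGAA, which contain the ETS core and cannot overlap each other (CCGGAA can match both strands of the same bases), were searched on both strands and are in capitals, also where they were read on the opposite strand. At least 1 of them was in 8 of the 35 windows (22.9%), against 41.4% of the 32851 windows of all genes, and CCGGAA was in 1 member window, that of Nid1, against 14.9% of all windows. These are matches of letters, not measured binding sites.

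Col4a1 (chr8:11312777-11313076, minus strand) and Col4a2 (chr8:11312555-11312854, plus strand) encode the chains of the commonest type IV collagen and start from a shared promoter in opposite directions. Their windows share 78 bases, read from opposite strands, and neither motif was found.
Col4a1: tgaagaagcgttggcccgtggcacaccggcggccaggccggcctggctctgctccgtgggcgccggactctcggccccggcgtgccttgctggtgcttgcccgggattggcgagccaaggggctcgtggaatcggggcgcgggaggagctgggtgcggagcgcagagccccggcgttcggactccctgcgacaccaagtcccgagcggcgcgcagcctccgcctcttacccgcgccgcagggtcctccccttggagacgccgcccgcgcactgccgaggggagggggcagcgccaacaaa
Col4a2: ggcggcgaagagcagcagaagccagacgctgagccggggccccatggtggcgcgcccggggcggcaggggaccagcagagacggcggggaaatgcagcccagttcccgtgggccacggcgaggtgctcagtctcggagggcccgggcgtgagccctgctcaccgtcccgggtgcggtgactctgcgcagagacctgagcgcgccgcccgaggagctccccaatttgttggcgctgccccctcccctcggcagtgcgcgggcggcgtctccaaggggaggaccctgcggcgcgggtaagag
Nid1 (chr13:13437352-13437651, plus strand) encodes nidogen 1 and holds both motifs.
Nid1: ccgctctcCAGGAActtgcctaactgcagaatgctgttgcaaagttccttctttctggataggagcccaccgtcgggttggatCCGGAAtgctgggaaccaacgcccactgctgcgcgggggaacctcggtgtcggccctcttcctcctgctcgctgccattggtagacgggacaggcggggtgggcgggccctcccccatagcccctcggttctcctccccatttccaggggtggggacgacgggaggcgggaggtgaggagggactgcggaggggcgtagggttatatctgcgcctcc
Lama5 (chr2:180225810-180226109, minus strand) encodes the laminin alpha 5 chain, and its promoter region was the only member promoter region called between WT SP and WT DP.
Lama5: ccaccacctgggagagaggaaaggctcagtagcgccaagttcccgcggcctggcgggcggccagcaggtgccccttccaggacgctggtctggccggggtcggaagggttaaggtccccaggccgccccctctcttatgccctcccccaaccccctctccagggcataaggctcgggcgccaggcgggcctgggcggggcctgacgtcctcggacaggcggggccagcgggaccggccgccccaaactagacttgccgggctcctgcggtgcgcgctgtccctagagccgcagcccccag
Vcan (chr13:89742463-89742762, minus strand) encodes the proteoglycan versican, and Col5a3 (chr9:20815018-20815317, minus strand) a type V collagen chain. Their promoter regions were called in opposite directions in OE SP.
Vcan: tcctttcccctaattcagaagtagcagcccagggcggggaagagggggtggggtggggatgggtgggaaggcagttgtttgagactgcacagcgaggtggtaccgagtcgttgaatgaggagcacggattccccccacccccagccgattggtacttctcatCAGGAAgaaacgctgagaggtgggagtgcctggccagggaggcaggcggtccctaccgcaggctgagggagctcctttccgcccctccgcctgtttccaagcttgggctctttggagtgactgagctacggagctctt
Col5a3: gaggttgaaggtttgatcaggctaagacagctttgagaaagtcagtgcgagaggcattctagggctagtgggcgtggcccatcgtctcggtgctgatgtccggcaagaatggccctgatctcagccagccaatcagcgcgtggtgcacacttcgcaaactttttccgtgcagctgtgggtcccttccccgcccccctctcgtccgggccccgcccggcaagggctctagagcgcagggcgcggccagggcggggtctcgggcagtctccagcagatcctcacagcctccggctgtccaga

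The promoter regions were open in every group, and most were not called between groups. The region over the Col4a1 and Col4a2 promoter (chr8:11312596-11312996) had 493 and 430.2 (WT DP), 591 and 589 (WT SP), 548 and 541 (KO DP), and 391 and 519 (OE SP) normalized reads, and was called in none of the 3 comparisons (limma adjusted p = 0.169, 0.465 and 0.0694). At the Nid1 promoter, values were 246 and 217 (WT DP), 271 and 259 (WT SP), 189 and 183 (KO DP), and 210.1 and 240.4 (OE SP), again with no call. In all, 24 regions overlapped a member promoter window, covering 25 genes. Of these 24, the Lama5 region was higher in WT SP than in WT DP, none was called in KO DP by limma or edgeR (1 higher and 6 lower at an unadjusted limma p under 0.05), and in OE SP 1 was higher (4.17%) and 8 were lower (33.3%) than in WT SP. Over all regions tested, 6.2% were higher and 8.12% lower in WT SP than WT DP, 1.72% and 2.21% in KO DP than WT DP, and 16.6% and 31.9% in OE SP than WT SP. The share of lower promoter regions in OE SP was thus near that of regions of every kind. Promoter regions of other genes were not counted apart. The Lama5 region held 472 and 459.9 (WT DP), 797 and 676 (WT SP), 521 and 488 (KO DP), and 543 and 644 (OE SP), with all WT SP values above those of WT DP and a log2 change of 0.65 ± 0.15 (SE; limma adjusted p = 0.0149). That call was lost without any 1 of the 4 libraries (limma adjusted p up to 0.177). The Vcan promoter region fell from 420.4 and 363 in WT SP to 206 and 289 in OE SP. This was a log2 change of -0.67 ± 0.18 (SE; limma adjusted p = 0.00943). It was lost without WT SP library 1 and with the compared groups alone (limma adjusted p up to 0.0979). The Col5a3 promoter region rose from 71.2 and 63.4 in WT SP to 152 and 129 in OE SP. That made a log2 change of 1.00 ± 0.21 (SE; limma adjusted p = 0.00194). Over a wider set, 48 member regions lay within 1 kb of either end of a member gene, and of these 2 were higher and 0 lower in WT SP than WT DP, 0 higher and 2 lower in KO DP than WT DP, and 3 higher (6.25%) and 19 lower (39.6%) in OE SP than WT SP. For WT SP against WT DP, the shares higher and lower were 4.17% and 0% of these 48 regions. They were 8.87% and 8.43% of the 451 other member regions tested inside genes, and 11% and 9.89% of the 263 tested outside. Shares by place were not computed over the regions of all genes.

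Depth and label checks apply to everything below. Recovered reads in regions ran from 12477601 to 18853733 a library, and 762 of the 767 member regions passed the filter of a mean of at least 10 normalized reads. Libraries of a group had log2 values that correlated across all regions at 0.978 in WT DP, 0.978 in WT SP, 0.975 in KO DP and 0.937 in OE SP, and the OE SP pair stood apart, with a chi-square per degree of freedom of 4.32 against 1.15 to 1.22 in the other groups. Etv2 regions checked the knockout label: the region at chr7:30634628-30635028 held 563 and 611 (WT DP), 475 and 493 (WT SP), 0.840 and 0 (KO DP) and 425 and 645 (OE SP). The gene-end region chr7:30633790-30634190 also held 0 and 0 in KO DP. At the gene-end region chr7:30636355-30636755 signal remained, with 133 and 109.6 in WT DP and 199.8 and 192.5 in KO DP. These values do not check the induction in OE SP. The region beside Pdgfra at chr5:75149925-75150325 held 580 and 657 (WT DP), 686 and 638 (KO DP), 272 and 269.6 (WT SP) and 108 and 129 (OE SP). It is 1 of 28 Pdgfra regions, and these did not move together: 2 were higher and 4 lower in WT SP than WT DP, and 7 higher and 11 lower in OE SP than WT SP. The region chr5:75209999-75210399, for example, held 18.4 and 18.9 (WT DP), 45.8 and 39.7 (WT SP), 22.7 and 21.4 (KO DP) and 144 and 152 (OE SP).

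The classes as a whole are described first, each as the normalized reads in its regions per 1000 normalized reads of the library. Basement membrane regions took 1.73 and 1.73 (WT DP), 1.84 and 1.87 (WT SP), 1.86 and 1.89 (KO DP) and 1.71 and 1.85 (OE SP). Fibrillar matrix regions took 1.12 and 1.13 (WT DP), 1.09 and 1.11 (WT SP), 1.11 and 1.10 (KO DP) and 0.872 and 0.897 (OE SP). The fibrillar share was thus lowest in OE SP, where neither library reached the range of the other groups, while the basement membrane share of OE SP overlapped that of WT SP. The other matrix regions took 0.690 and 0.698 (WT DP), 0.652 and 0.657 (WT SP), 0.737 and 0.730 (KO DP) and 0.529 and 0.588 (OE SP), again lowest in OE SP.

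The ratio of basement membrane to fibrillar reads within a library does not depend on how that library was scaled. It was 1.55 and 1.53 (WT DP), 1.69 and 1.68 (WT SP), 1.67 and 1.71 (KO DP) and 1.96 and 2.07 (OE SP). Both OE SP libraries lay above all other libraries, both WT DP libraries lay below all others, and WT SP and KO DP overlapped. Between the compared groups the ratio differed by 0.148 for WT SP minus WT DP, 0.156 for KO DP minus WT DP and 0.326 for OE SP minus WT SP, and the groups did not overlap in any of the 3. With 2 libraries against 2, an exact two-sided permutation test cannot go below p = 0.333, which each of the 3 reached. Counting only regions within 10 kb of a gene, the ratios were 1.86 and 1.83 (WT DP), 1.95 and 1.95 (WT SP), 2.06 and 2.12 (KO DP) and 2.12 and 2.23 (OE SP), so that the KO DP range then overlapped that of OE SP. The sum is weighted towards genes with many and strong regions.

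**Figure D1:**
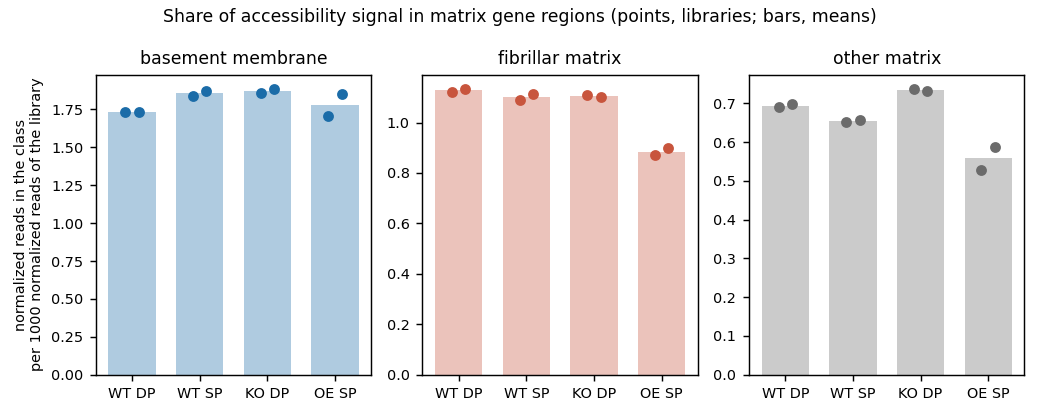
Normalized reads in the regions of each class per 1000 normalized reads of the library (vertical axis, from 0, with its own scale in each panel) for the 4 groups; points are libraries and bars group means. Fibrillar matrix stands at 0.872 and 0.897 in the OE SP libraries and at 1.09 to 1.13 in the other 6.

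WT SP against WT DP compares cells without surface PDGFRalpha with cells that carry both receptors, in the same stem cell line. Accessibility moved in both directions around the matrix genes. Laminin and type IV collagen genes had separate regions that opened and that closed, regions at Fn1 closed, and regions at Hapln1 and Vcan opened. Of the 762 member regions tested, 71 (9.32%) were higher and 64 (8.40%) lower in WT SP, against 6.2% higher and 8.12% lower over all 167573 regions tested. By class, 41 were higher and 30 lower of 394 at basement membrane genes, 17 higher and 22 lower of 248 at fibrillar matrix genes, and 13 higher and 12 lower of 120 at the others. The median log2 change, less the median of all regions (0.106), was 0.083 for basement membrane and -0.046 for fibrillar matrix. Both other scalings gave the same signs, but a scaling largely cancels once the median of all regions is taken off, so they are no check. No test of the difference between the classes was made. A call needed a limma p below 0.05 after Benjamini-Hochberg adjustment across the regions tested, on log2(value + 5), which understates changes of low regions. The balance of calls moved with the scaling, as did that of all regions. With libraries rescaled on the 10000 highest regions, 50 were higher and 105 lower, against 4.01% and 13.3% of all regions. Leaving out either library of WT DP or WT SP left fewer calls among members and over all regions alike, each time with fewer samples in the fit. The median less that of all regions was then 0.075 to 0.112 for basement membrane and -0.062 to -0.012 for fibrillar matrix.

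Among the laminins, which form trimers of an alpha, a beta and a gamma chain, Lama1 had the largest fall of all member regions called in this comparison. Lama1 encodes the alpha chain of the first basement membranes of the embryo. Inside it, the region chr17:67728828-67729228 held 169.9 and 146 (WT DP), 12.2 and 11.9 (WT SP), 160.4 and 141 (KO DP), and 8.02 and 7.88 (OE SP) normalized reads. The estimated log2 change was -3.25 ± 0.21 (SE; limma adjusted p = 0.000111). It was near closed in both PDGFRalpha- groups and open in both PDGFRalpha+ groups. The strongest Lama1 region, over an end of the gene, was not called: chr17:67696946-67697346 held 924 and 913 (WT DP) and 1051 and 984 (WT SP), with a limma adjusted p of 0.600. Lama3, an epithelial laminin chain, had 5 higher and 0 lower regions. Its region of lowest p (chr18:12347233-12347633) rose from 2.91 and 7.19 in WT DP to 46.8 and 59.5 in WT SP, a log2 change of 2.56 ± 0.39 (SE; limma adjusted p = 0.00166), and values were higher still at 163 and 372 in OE SP. At Lama4, a chain of vessel basement membranes, 3 regions were higher and 1 lower. Around Lamb1, the beta chain found in most early laminins, 2 were higher and 3 lower, and the region chr12:31246153-31246553 fell from 96.1 and 104 in WT DP to 38.7 and 39.7 in WT SP (log2 change -1.25). At Lamb3, another epithelial chain, the region chr1:193305403-193305803 fell from 53.4 and 59.3 in WT DP to 19.3 and 14.9 in WT SP; this call was lost without WT DP library 2 or WT SP library 2 (limma adjusted p up to 0.0532). Lamc1, the common gamma chain, had 2 higher and 0 lower regions, and its strongest region, at an end of the gene, was not called.

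Type IV collagen genes gave 9 higher and 9 lower calls of 100 regions. Around Col4a1, 6 regions were higher and 4 lower, and the region chr8:11267272-11267672 rose from 17.5 and 14.4 in WT DP to 58.0 and 74.3 in WT SP. The log2 change there was 1.76 ± 0.28 (SE; limma adjusted p = 0.00222). Within Col4a2, chr8:11379834-11380234 rose from 19.4 and 21.6 in WT DP to 71.2 and 58.5 in WT SP (log2 change 1.45). The strongest Col4a2 region went the other way: chr8:11317211-11317611 held 271 and 281 in WT DP and 161 and 159.6 in WT SP, a log2 change of -0.77 ± 0.18 (SE; limma adjusted p = 0.0148), a call lost without any 1 of the 4 libraries (limma adjusted p up to 0.132). Regions of opposite direction thus lay within the same gene. Inside Col4a4, a chain of kidney and inner ear basement membranes, chr1:82560207-82560607 fell from 104 and 105 in WT DP to 23.4 and 20.8 in WT SP (log2 change -2.02). Perlecan, Hspg2, had 4 higher and 1 lower region. Its region chr4:137495165-137495565 rose from 342 and 341 in WT DP to 684 and 732 in WT SP, a log2 change of 1.04 ± 0.18 (SE; limma adjusted p = 0.00304), and this call was lost without WT SP library 2 (limma adjusted p = 0.0502). The nidogen genes had 3 higher and 0 lower regions of 37. The multiplexins, collagens attached to basement membranes, had different counts: Col15a1 had 0 higher and 6 lower regions and Col18a1, the source of endostatin, 8 higher and 4 lower. The Col18a1 region chr10:77182811-77183211 rose from 24.3 and 10.8 in WT DP to 87.5 and 99.1 in WT SP and the Col15a1 region chr4:47269622-47270022 fell from 46.6 and 60.2 in WT DP to 12.2 and 9.91 in WT SP.

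In the fibrillar class, lower calls were most frequent at Col14a1, Col5a2, Fbn2 and Fn1. The strongest region of Col5a2, a chain of the type V collagen that limits fibril width, lay 43.2 kb outside the gene. At chr1:45546327-45546727 it held 189 and 198 (WT DP), 38.7 and 51.5 (WT SP), 294 and 254 (KO DP), and 4.38 and 11.8 (OE SP), a log2 change of -2.00 ± 0.26 (SE; limma adjusted p = 0.000833), and was lower in both PDGFRalpha- groups. Fn1, fibronectin, had 0 higher and 4 lower regions of 21. Its region chr1:71673429-71673829, 20.3 kb outside the gene, fell from 524 and 575 in WT DP to 151 and 149.7 in WT SP. This was a log2 change of -1.84 ± 0.28 (SE; limma adjusted p = 0.00154). The strongest Fn1 region, at an end of the gene (chr1:71653015-71653415), held 727 and 707 (WT DP) and 738 and 794 (WT SP) and was not called (limma adjusted p = 0.730). Col14a1, a collagen on the fibril surface, had 1 higher and 5 lower regions, led by chr15:55313191-55313591 at 183 and 197 (WT DP) and 72.3 and 71.4 (WT SP) (log2 change -1.34). Higher calls were most frequent at Fbn1, a fibrillin of microfibrils, with 4 higher and 0 lower regions, and at Col5a1 with 4 higher and 2 lower. Col12a1 had 1 higher and 0 lower. The Fbn1 region chr2:125515671-125516071 rose from 18.4 and 13.5 in WT DP to 53.9 and 61.5 in WT SP (log2 change 1.59), the Col12a1 region chr9:79687232-79687632 from 6.80 and 9.88 in WT DP to 29.5 and 38.7 in WT SP, and the Col5a1 region chr2:27870944-27871344 from 85.4 and 71.0 in WT DP to 181 and 175 in WT SP. These 3 calls were each lost without 1 or more of the libraries, with limma adjusted p up to 0.0501 at Fbn1, 0.0578 at Col12a1 and 0.0854 at Col5a1, as were those of the lead regions of Fbn2 (-1.15, limma adjusted p up to 0.107) and Col6a3 (1.18, up to 0.139). Type I collagen had few calls: Col1a1 had 1 higher region and Col1a2 1 higher and 1 lower. Col2a1, Col3a1 and Col6a1 had none. Few calls need not mean no change: the summed Col1a1 regions held 1517 and 1533 in WT DP and 2090 and 2086 in WT SP. That log2 change of 0.45 ± 0.18 (SE) was not called (limma adjusted p = 0.126).

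Among the other matrix genes, the hyaluronan matrix genes Vcan and Hapln1 had 7 higher and 0 lower regions of 24. Hapln1 encodes the link protein that ties hyaluronan to proteoglycans such as versican. Its region chr13:89496568-89496968 held 7.77 and 6.29 (WT DP), 43.8 and 38.7 (WT SP), 7.56 and 11.9 (KO DP), and 203 and 242 (OE SP), a log2 change of 1.94 ± 0.24 (SE; limma adjusted p = 0.000599), and rose in the order WT DP, WT SP, OE SP. The Vcan region chr13:89692600-89693000 held 8.74 and 8.08 (WT DP), 53.9 and 54.5 (WT SP), 8.40 and 9.51 (KO DP), and 114 and 121 (OE SP), a log2 change of 2.14 ± 0.22 (SE; limma adjusted p = 0.000276), in the same order. Tnc, tenascin C, had 3 higher and 2 lower regions, and Col13a1, a transmembrane collagen, 1 higher and 7 lower. At Tnc, chr4:63967588-63967988 fell from 94.2 and 91.6 in WT DP to 13.2 and 17.8 in WT SP (log2 change -2.26), and at Col13a1, chr10:62017477-62017877 fell from 105 and 97.0 in WT DP to 19.3 and 16.9 in WT SP (log2 change -2.20).

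**Figure D2:**
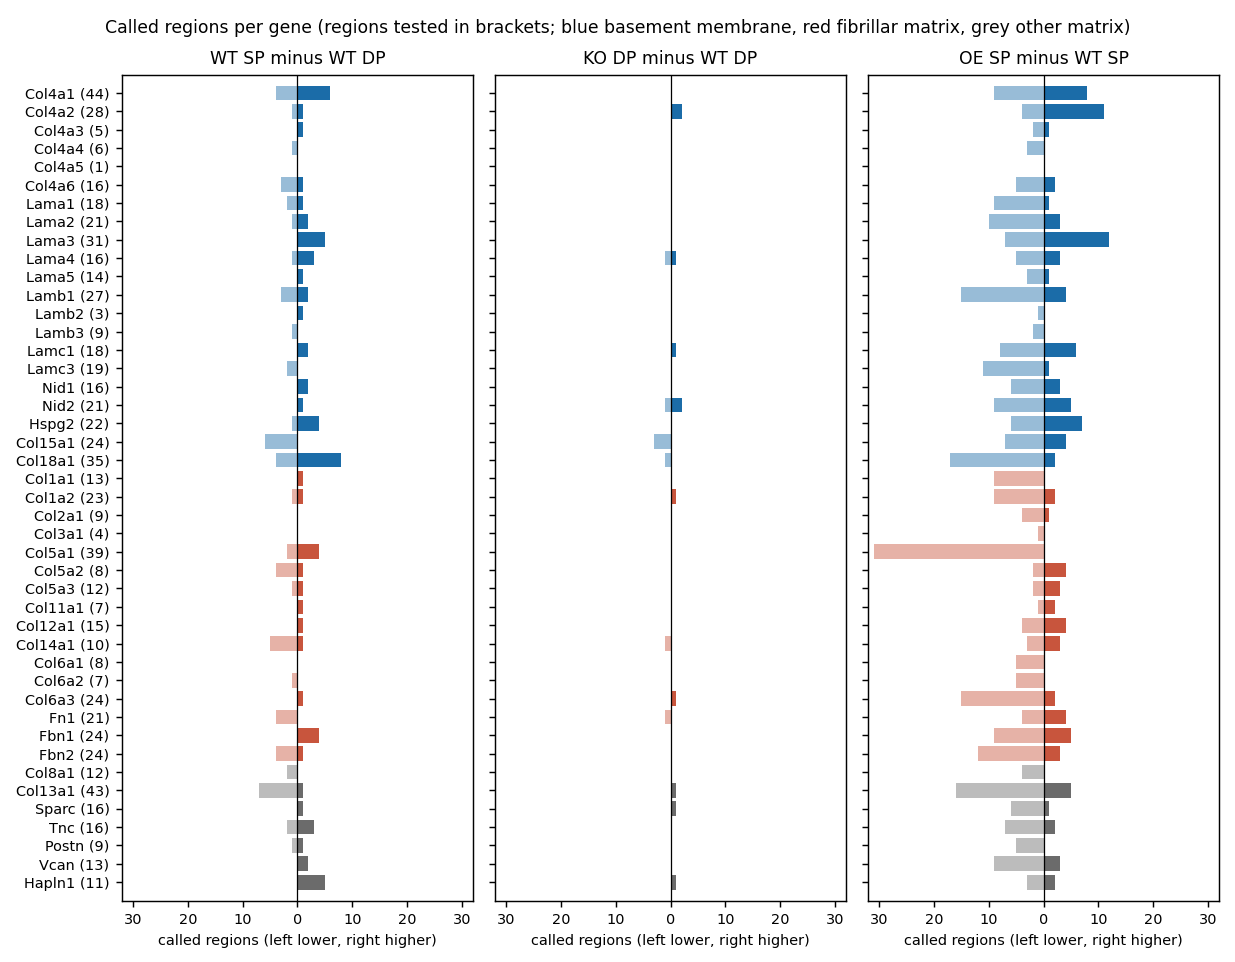
Number of called regions of each of the 44 genes (horizontal axis, lower to the left and higher to the right) in the 3 comparisons, with regions tested in brackets; blue is basement membrane, red fibrillar matrix and grey other matrix. Col5a1 had 0 higher and 31 lower regions in OE SP, while Lama3 had 12 higher and 7 lower, and 31 genes had no called region in KO DP.

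Summing all regions of a gene gives 1 value a gene. On this scale 2 genes were higher and 3 lower in WT SP of the 44, against 4.52% higher and 2.94% lower over 18534 genes. Hapln1 rose from 539 and 575 in WT DP to 914 and 905 in WT SP normalized reads, a log2 change of 0.70 ± 0.14 (SE; limma adjusted p = 0.00534), and Lamb2, a laminin beta chain, from 657 and 638 in WT DP to 904 and 893 in WT SP. That made a log2 change of 0.47 ± 0.14 (SE; limma adjusted p = 0.0474). Col5a2 fell from 416 and 412 in WT DP to 204 and 239 in WT SP, a log2 change of -0.89 ± 0.13 (SE; limma adjusted p = 0.000428), Col14a1 had a log2 change of -0.67 and Col15a1 of -0.46. All 5 calls were lost under some alternative: Lamb2 and Col15a1 without any 1 of the 4 libraries, Hapln1 without WT DP library 1 or WT SP library 1 or within 10 kb only, Lamb2 also under pseudocount 1 and the rescaling on the 10000 highest regions, Col14a1 without WT DP library 2 or WT SP library 2, and Col5a2 when only regions within 10 kb were counted.

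KO DP against WT DP compares cells with and without Etv2 that were sorted through the same gate, and shares the WT DP libraries with the comparison above. Few matrix regions differed. Regions at Lama4, Sparc, Col13a1, Hapln1, Nid2, Lamc1 and Col4a2 were among those higher in KO DP, and regions at Col15a1, Fn1 and Col14a1 among those lower. Lama4 and Nid2 were called in both directions, Lama4 with 1 higher and 1 lower region and Nid2 with 2 higher and 1 lower. Of the 762 regions tested, 11 (1.44%) were higher and 8 (1.05%) lower, against 1.72% and 2.21% of all regions, so neither share exceeded the background. By class the counts were 6 higher and 6 lower for basement membrane, 2 and 2 for fibrillar matrix and 3 and 0 for the others, and 31 of the 44 genes had no called region. The split moved with the scaling, to 19 higher and 11 lower under median-of-ratios factors and 26 higher and 10 lower under rescaling on the 10000 highest regions. All regions moved too, to 2.57% higher and 2.31% lower under the former and 3.68% and 2.33% under the latter. Leaving out either library of WT DP or KO DP left fewer calls among members and over all regions alike. The median log2 change less that of all regions was 0.103 for basement membrane and -0.040 for fibrillar matrix. In those smaller fits it was 0.074 to 0.122 and -0.007 to 0.011.

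The region called under every alternative in the basement membrane class lay inside Lama4. At chr10:39033227-39033627 it held 7.77 and 8.08 (WT DP), 12.2 and 19.8 (WT SP), 57.1 and 52.3 (KO DP), and 5.11 and 6.57 (OE SP), a log2 change of 2.21 ± 0.27 (SE; limma adjusted p = 0.000896), open in KO DP and low in the other 3 groups. Beside Sparc, a collagen-binding matricellular protein, chr11:55392486-55392886 held 53.4 and 47.6 (WT DP), 50.9 and 59.5 (WT SP), 193 and 149 (KO DP), and 40.1 and 40.7 (OE SP), a log2 change of 1.65 ± 0.21 (SE; limma adjusted p = 0.000987), and was likewise called under every alternative. A Col13a1 region (chr10:61972080-61972480) followed the same pattern, with 11.6 and 13.5 (WT DP), 14.2 and 6.94 (WT SP), 67.2 and 73.7 (KO DP), and 10.2 and 9.20 (OE SP) and a log2 change of 2.10 ± 0.28 (SE; limma adjusted p = 0.00149), a call lost only without KO DP library 2 (limma adjusted p = 0.0518). These 3 regions were high in KO DP alone of the 4 groups, which are also the only libraries of the knockout line. Higher calls at Hapln1 (chr13:89547439-89547839, 25.2 and 22.5 in WT DP and 95.7 and 116 in KO DP), Nid2 (chr14:19759708-19760108, 31.1 and 31.4 in WT DP and 91.5 and 102 in KO DP), Lamc1 (chr1:153211366-153211766, 93.2 and 72.8 in WT DP and 188 and 206 in KO DP) and Col4a2 (chr8:11405767-11406167, 58.2 and 72.8 in WT DP and 172 and 132 in KO DP) were each lost without any 1 of the 4 libraries, with limma adjusted p up to 0.113, 0.139, 0.151 and 0.233.

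In the fibrillar class, a Col6a3 region (chr1:90836446-90836846) rose from 13.6 and 8.08 in WT DP to 33.6 and 38.0 in KO DP and a Col1a2 region (chr6:4465982-4466382) from 9.71 and 9.88 in WT DP to 26.9 and 27.3 in KO DP, both low in level and lost without any 1 of the 4 libraries. Over all classes, the lower calls were led by Col15a1 of the basement membrane class, with 3 regions. Its region chr4:47288233-47288633 fell from 79.6 and 81.7 in WT DP to 24.3 and 30.9 in KO DP, a log2 change of -1.40 ± 0.22 (SE; limma adjusted p = 0.00436), and the values of 37.7 and 34.7 in WT SP lay between. Inside Fn1, chr1:71643325-71643725 fell from 175 and 168 in WT DP to 86.5 and 66.6 in KO DP (log2 change -1.12), and inside Col14a1, chr15:55440859-55441259 fell from 98.0 and 120.4 in WT DP to 41.1 and 57.0 in KO DP (log2 change -1.09). These were lost without 3 or 4 of the libraries, with limma adjusted p up to 0.0837 at Col15a1, 0.125 at Fn1 and 0.247 at Col14a1. The Col18a1 gene-end region chr10:77165768-77166168 (188 and 189.5 in WT DP and 129 and 112 in KO DP) had a limma adjusted p of 0.0491, lost without any 1 of the 4 libraries and under 3 other settings. The 100 type IV collagen regions had a median of 0.303 above that of all regions (-0.069), with 2 higher and 0 lower calls. Across scalings this difference was 0.299 to 0.303, but a scaling largely cancels in it. Col4a1 and Col4a2, which neighbour each other, hold 44 and 28 of these regions, with a median log2 change of 0.19 and 0.39. The regions within 1 Mb that belong to none of the listed genes had 0.15 and 0.14. The neighbouring regions thus also lay above the median of all regions. The strongest Col4a2 region (chr8:11317211-11317611) held 271 and 281 in WT DP and 455 and 414 in KO DP and was not called (limma adjusted p = 0.0692), but was called under both rescalings.

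By summed regions, 0 of the 44 genes were higher and 2 lower in KO DP, against 2.08% and 5.27% of all genes. Col15a1 fell from 1063 and 1047 in WT DP to 788 and 749.9 in KO DP. The estimated log2 change was -0.45 ± 0.12 (SE; limma adjusted p = 0.0263). Col4a5, an X-linked type IV chain with its only region over its promoter, fell from 81.5 and 80.8 in WT DP to 47.9 and 51.1 in KO DP, a log2 change of -0.66 ± 0.18 (SE; limma adjusted p = 0.0289), with 84.5 and 87.2 (WT SP) and 75.1 and 95.9 (OE SP). Both calls were lost without any 1 of the 4 libraries. The Col4a5 sum is that of its only region, which was not called in the fit of regions, where the spread and the adjustment were others. Beside the 0 higher, 2 genes were higher and 8 lower at an unadjusted limma p under 0.05, and edgeR, run on regions only, called 13 regions higher and 9 lower. Col4a2 summed to 1517 and 1401 in WT DP and 2091 and 2068 in KO DP (limma adjusted p = 0.0506), and was called higher under both rescalings.

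**Figure D3:**
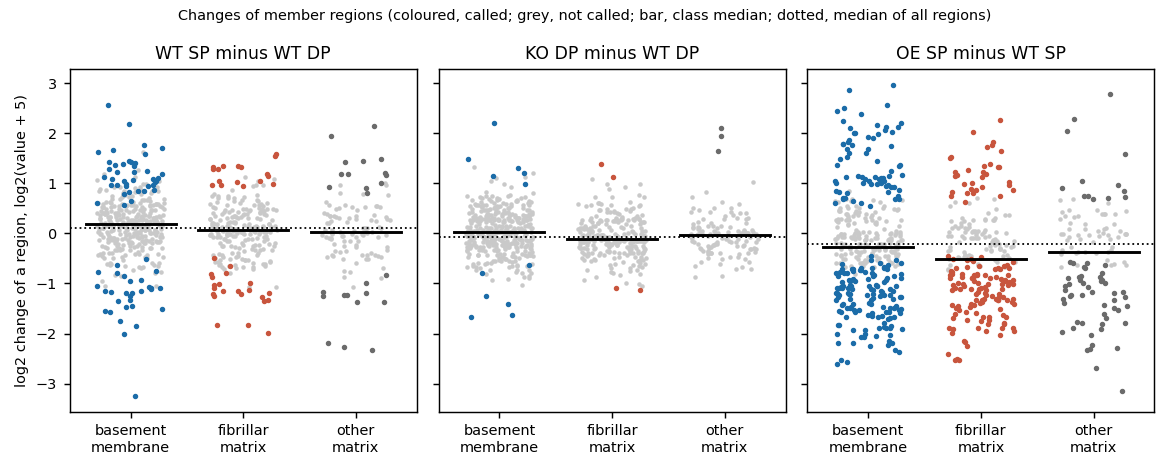
Log2 change of each member region on the log2(value + 5) scale (vertical axis) by class in the 3 comparisons; coloured points were called at a limma adjusted p below 0.05, grey points were not, bars are class medians and the dotted line is the median of all regions. In OE SP minus WT SP the fibrillar median lies at -0.51 and the basement membrane median at -0.27, against -0.22 for all regions.

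OE SP against WT SP compares FLK1+ PDGFRalpha- cells with and without induced Etv2, and shares the WT SP libraries with the first comparison. Many regions at Col5a1, Col1a1 and type VI collagen genes closed, while the basement membrane class had more higher than lower calls at Col4a2 and Lama3 and more lower than higher at Lamb1, Lamc3 and Col18a1. Of the 762 regions, 120 (15.7%) were higher and 305 (40.0%) lower, against 16.6% and 31.9% of all regions. At basement membrane genes 74 (18.8%) were higher and 139 (35.3%) lower of 394, at fibrillar genes 33 (13.3%) and 116 (46.8%) of 248, and at the others 13 (10.8%) and 50 (41.7%) of 120. The median log2 change less that of all regions (-0.221) was -0.047 for basement membrane, -0.291 for fibrillar matrix and -0.160 for the others. Across the scalings it was -0.291 to -0.279 for fibrillar matrix and -0.075 to -0.047 for basement membrane. A scaling largely cancels in such a difference, so these ranges are no check of it. No test of the difference between the classes was made. Under median-of-ratios factors, 157 were higher and 242 lower, against 23.3% and 25.4% of all regions. Without either WT SP library fewer regions were called, among members and over all regions alike. Leaving out either library of WT SP or OE SP put the median less that of all regions at -0.336 to -0.278 for fibrillar matrix. For basement membrane it was then -0.095 to -0.053. Of the 44 genes, 33 had regions called in both directions, 10 had only lower calls, 0 had only higher calls and Col4a5 had none.

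Type IV collagen gave 22 higher and 23 lower calls of 100, and its median was 0.206 above that of all regions. Col4a2 had 11 higher and 4 lower regions, Col4a1 8 and 9. Inside Col4a1, chr8:11279212-11279612 held 9.71 and 16.2 (WT DP), 25.4 and 22.8 (WT SP), 13.4 and 13.1 (KO DP), and 114 and 110.4 (OE SP), a log2 change of 2.01 ± 0.25 (SE; limma adjusted p = 5.75e-05), with both OE SP libraries above all others. The Col4a1 region that rose in WT SP, chr8:11267272-11267672, was again higher here, at 141 and 217 in OE SP. The strongest Col4a2 region, chr8:11317211-11317611, went from 161 and 159.6 in WT SP to 20.4 and 27.6 in OE SP, a log2 change of -2.52 ± 0.18 (SE; limma adjusted p = 4.35e-06), the lowest adjusted p of any basement membrane region in this comparison. Col4a2 thus held this closing region and 11 opening ones. The neighbouring regions within 1 Mb that belong to none of the 44 genes had medians of -0.40 around Col4a1 and -0.43 around Col4a2. The genes' own regions had medians of -0.10 and 0.14.

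Laminin genes had more lower than higher calls. The beta chains had 4 higher and 18 lower of 39 regions and the gamma chains 7 and 19 of 37, with medians 0.379 and 0.303 below that of all regions. The alpha chains had 20 higher and 34 lower of 100, with a median 0.040 above. At Lamb1, 4 regions were higher and 15 lower, led by chr12:31209639-31210039 at 89.6 and 74.3 (WT SP) and 8.02 and 10.5 (OE SP). The log2 change there was -2.61 ± 0.22 (SE; limma adjusted p = 6.8e-06). The regions within 1 Mb of Lamb1 that belong to none of the listed genes had a median of -0.004, against -0.86 for its own. At Lamc3, 1 was higher and 11 lower, and chr2:31883008-31883408 held 208 and 233 (WT DP), 127 and 156 (WT SP), 217 and 209 (KO DP), and 25.5 and 22.3 (OE SP). This was a log2 change of -2.33 ± 0.18 (SE; limma adjusted p = 5.44e-06). Lama3, unlike the other laminin genes, had more higher than lower calls, with 12 higher and 7 lower regions, although its region of lowest p was a fall, at chr18:12391175-12391575 from 63.1 and 82.3 in WT SP to 14.6 and 17.1 in OE SP (log2 change -1.89). Lama2, the muscle laminin chain, had 3 higher and 10 lower, led by chr10:27688416-27688816 from 63.1 and 77.3 in WT SP to 15.3 and 11.8 in OE SP. At an end of Lama1, chr17:67696946-67697346 fell from 1051 and 984 in WT SP to 568 and 791 in OE SP (log2 change -0.60), a call lost without either WT SP library (limma adjusted p up to 0.0955). Neither the strongest Lamb1 region, over its promoter, at 386 and 320.2 (WT SP) and 312 and 297 (OE SP), nor the strongest Lamc1 region, at a gene end, at 1189.8 and 1051 (WT SP) and 832 and 1035 (OE SP), was called.

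The linkers and attached collagens were mixed. Nid1 and Nid2 together had 8 higher and 15 lower regions. The strongest Nid1 region, 26.5 kb outside the gene at chr13:13538624-13539024, held 211 and 214 (WT DP), 322 and 310.3 (WT SP), 380.4 and 324 (KO DP), and 530.3 and 825 (OE SP). That made a log2 change of 1.05 ± 0.20 (SE; limma adjusted p = 0.000935). A Nid2 region outside the gene, chr14:19713060-19713460, held 26.2 and 28.7 (WT DP), 39.7 and 35.7 (WT SP), 26.9 and 17.8 (KO DP), and 153 and 223 (OE SP). The estimated log2 change was 2.16 ± 0.25 (SE; limma adjusted p = 3.92e-05). Both opened in OE SP beyond every other library. Hspg2 had 7 higher and 6 lower, led by a fall at chr4:137482428-137482828 from 98.7 and 112 in WT SP to 12.4 and 21.0 in OE SP, while the region over its promoter was not called. Col15a1 had 4 higher and 7 lower, and chr4:47205870-47206270, 1.58 kb outside the gene, rose from 6.11 and 4.96 in WT SP to 48.1 and 67.0 in OE SP (log2 change 2.56). Col18a1 had 2 higher and 17 lower, led by chr10:77097264-77097664, which fell from 124 and 129.9 in WT SP to 19.7 and 28.9 in OE SP (log2 change -2.19). The Col18a1 region chr10:77182811-77183211 was 1 of the 2 higher regions of that gene, at 87.5 and 99.1 in WT SP and 289.6 and 541 in OE SP (log2 change 2.03, limma adjusted p = 0.000282).

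Fibrillar collagens had 12 higher and 59 lower of 115 regions, and their median was 0.427 below that of all regions. Col5a1 had 0 higher and 31 lower of 39, led by chr2:27932002-27932402 at 183 and 187 (WT DP), 291 and 285 (WT SP), 133 and 140.2 (KO DP), and 57.6 and 92.0 (OE SP). The log2 change there was -1.91 ± 0.21 (SE; limma adjusted p = 2.63e-05). Col1a1, the main chain of type I collagen, had 0 higher and 9 lower of 13. Its strongest region, 19.5 kb outside the gene at chr11:94916505-94916905, held 409 and 386 (WT DP), 582 and 630.5 (WT SP), 403 and 373 (KO DP), and 119.6 and 289 (OE SP), a log2 change of -1.67 ± 0.29 (SE; limma adjusted p = 0.000574), and both OE SP libraries were below all others but differed from each other by more than the libraries of any other group. The strongest Col1a2 region, 16.3 kb outside the gene at chr6:4557631-4558031, held 109.7 and 110.5 (WT DP), 225 and 215 (WT SP), 208 and 207 (KO DP), and 46.0 and 122 (OE SP), a log2 change of -1.48 ± 0.31 (SE; limma adjusted p = 0.00205), with OE SP library 2 above both WT DP libraries. Col3a1 was weakly accessible throughout: its strongest region (chr1:45315770-45316170) held 20.4 and 30.5 (WT DP), 40.7 and 38.7 (WT SP), 31.1 and 40.4 (KO DP), and 10.2 and 23.6 (OE SP), and its fall in OE SP (log2 change -1.10) was lost without either WT SP library or OE SP library 1 (limma adjusted p up to 0.0683). Own-region medians were set against those of regions within 1 Mb that belong to none of the listed genes. They were below these at Col1a1 (-1.26 against -0.32) and Col5a1 (-0.99 against -0.37), and near them at Col1a2 (-0.24 against -0.30) and Col3a1 (-0.13 against -0.21).

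Among the fibrillar collagens, Col5a2, Col5a3 and Col11a1 had more higher than lower calls. Col5a3 had 3 higher and 2 lower regions. Col5a2 had 4 higher and 2 lower regions, and at an end of the gene chr1:45502241-45502641 rose from 24.4 and 36.7 in WT SP to 109 and 176 in OE SP. This was a log2 change of 2.03 ± 0.27 (SE; limma adjusted p = 9.07e-05). The distal Col5a2 region that fell in WT SP, chr1:45546327-45546727, fell further, to 4.38 and 11.8 in OE SP (log2 change -1.98, limma adjusted p = 9.96e-05). Col5a2 thus had an opening gene-end region and a closing distal one, where all calls at Col5a1 were lower. A Col11a1 region 80.9 kb outside the gene (chr3:113949370-113949770) was the 1 lower region of that gene beside 2 higher, and fell from 57.0 and 63.4 in WT SP to 10.9 and 14.5 in OE SP.

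Type VI collagen had 2 higher and 25 lower of 39 regions and a median 0.660 below that of all regions, the lowest of all the member groups. Col6a3 had 2 higher and 15 lower, Col6a1 0 and 5, and Col6a2 0 and 5. The region chr10:76647180-76647580 beside Col6a2 held 93.2 and 90.7 (WT DP), 52.9 and 47.6 (WT SP), 107 and 118 (KO DP), and 8.02 and 6.57 (OE SP), a log2 change of -2.17 ± 0.20 (SE; limma adjusted p = 1.25e-05), and chr1:90781726-90782126 in Col6a3 fell from 65.1 and 69.4 in WT SP to 14.6 and 17.1 in OE SP (log2 change -1.80). Around Col6a3 the regions that belong to none of the listed genes also had a low median, -0.72 against its own -0.98. The fibrillins had 8 higher and 21 lower of 48, led by chr18:58124213-58124613 in Fbn2 from 121 and 108 in WT SP to 14.6 and 17.1 in OE SP, a log2 change of -2.52 ± 0.20 (SE; limma adjusted p = 5.42e-06), and by chr2:125419730-125420130 in Fbn1 from 108 and 98.1 in WT SP to 8.02 and 26.3 in OE SP. The surface collagens Col12a1 and Col14a1 had 7 higher and 7 lower of 25. The Col14a1 region that fell in WT SP, chr15:55313191-55313591, fell again to 5.84 and 11.8 in OE SP (log2 change -2.51). Fibronectin was balanced, with 4 higher and 4 lower of 21, and its gene-end region held 738 and 794 (WT SP) and 659 and 897 (OE SP) with no call (limma adjusted p = 0.979).

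**Figure D4:**
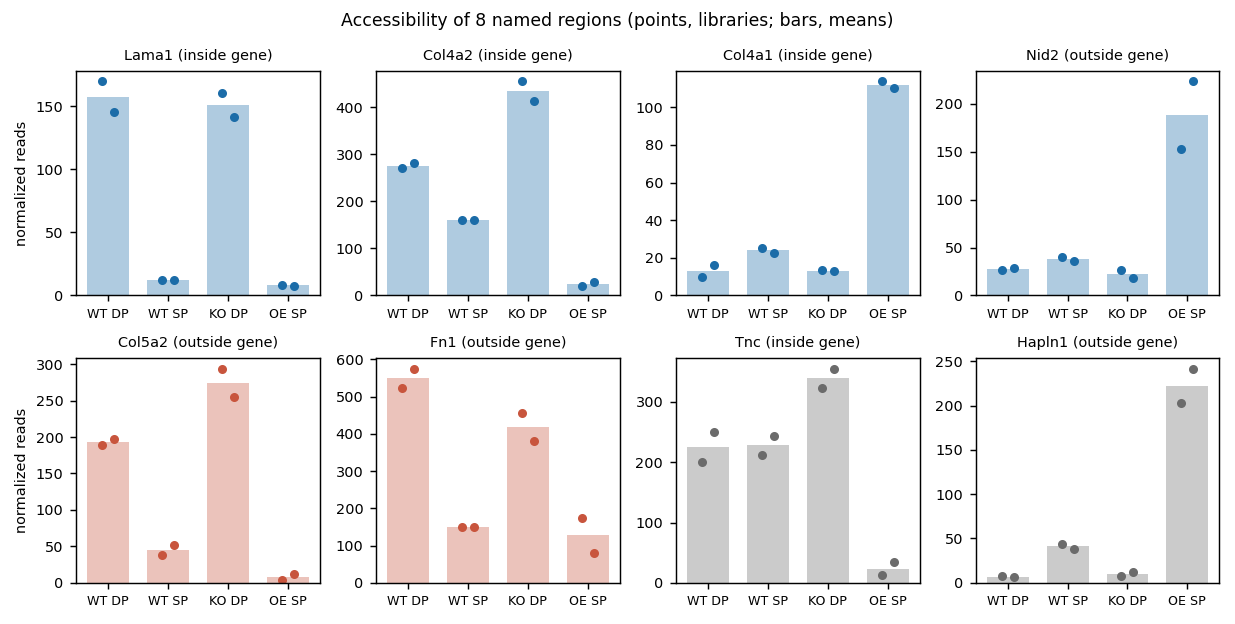
Normalized reads per region (vertical axis, from 0, own scale in each panel) for 8 named regions in the 4 groups; points are libraries and bars group means. The Lama1 and Col5a2 regions are low in both PDGFRalpha- groups, the Col4a1, Nid2 and Hapln1 regions are high in OE SP, and the Col4a2 and Tnc regions are low in OE SP.

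Among the other matrix genes, Tnc had 2 higher and 7 lower regions and the fall of greatest size, at chr4:63993493-63993893 from 213 and 244 in WT SP to 12.4 and 34.2 in OE SP. That made a log2 change of -3.16 ± 0.30 (SE; limma adjusted p = 1.26e-05). Col13a1 had 5 higher and 16 lower, led by chr10:61970430-61970830 from 69.2 and 70.4 in WT SP to 10.2 and 11.8 in OE SP (log2 change -2.23). Col8a1, a short-chain network collagen, had 0 and 4, led by chr16:57823284-57823684 from 41.7 and 47.6 in WT SP to 4.38 and 5.26 in OE SP, and Postn, periostin, 0 and 5. Sparc had 1 and 6, and the region over its promoter (chr11:55419702-55420102) fell from 597 and 574 in WT SP to 323 and 469 in OE SP (log2 change -0.58), a call lost without either WT SP library (limma adjusted p up to 0.106). Vcan and Hapln1 are neighbours on chromosome 13. Vcan had 3 higher and 9 lower regions and Hapln1 2 and 3, and the Hapln1 region chr13:89496568-89496968 rose again. The estimated log2 change was 2.29 ± 0.24 (SE; limma adjusted p = 2.25e-05). Own-region medians were -0.99 at Vcan and 0.06 at Hapln1.

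By summed regions, 3 of the 44 genes were higher and 20 lower in OE SP, against 9.43% and 24.4% of all genes. The lower genes were 9 fibrillar, 8 basement membrane and 3 others. Col6a3 went from 1235 and 1285 in WT SP to 447 and 661 in OE SP. The log2 change there was -1.20 ± 0.15 (SE; limma adjusted p = 1.13e-05). Col1a1 went from 2089.6 and 2086 in WT SP to 701 and 1246 in OE SP, a log2 change of -1.16 ± 0.18 (SE; limma adjusted p = 0.000103), and Col5a1 from 3512 and 3489.5 in WT SP to 1454 and 2132 in OE SP (log2 change -0.99). In these 3 genes both OE SP libraries were below all 6 others. Vcan (-0.87), Lamc3 (-0.79), Tnc (-0.65), Col6a2 (-0.63) and Lamb2 (-0.55) were lower under every alternative too, as were those 3. Lama3 went from 1306 and 1316 in WT SP to 1544 and 2013 in OE SP, a log2 change of 0.43 ± 0.14 (SE; limma adjusted p = 0.0218), a call lost without either WT SP library. Col5a2 went from 204 and 239 in WT SP to 313 and 374 in OE SP, a log2 change of 0.62 ± 0.13 (SE; limma adjusted p = 0.00144), still below the 416 and 412 in WT DP, and Col5a3 from 595 and 521 in WT SP to 742 and 862 in OE SP (log2 change 0.52). With both rescalings, 6 of the 9 fibrillar, 4 of the 8 basement membrane and 2 of the 3 other lower genes were still called, and all 3 higher genes. Without either WT SP library fewer genes were called lower, and without OE SP library 2 more were, among members and over all genes alike. The median log2 change of the 44 sums was -0.341 in the main fit, against -0.136 over all genes. Without OE SP library 1 these were -0.174 and -0.004, and without OE SP library 2 -0.491 and -0.274. Col4a1, at 3053 and 3236 (WT SP) and 2607 and 4386 (OE SP), and Col4a2, at 1609 and 1625 (WT SP) and 1541 and 2215 (OE SP), were not called, with the OE SP libraries on either side of WT SP; Col4a2 was called higher under both rescalings and Col4a1 under the rescaling on the 10000 highest regions.

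**Figure D5:**
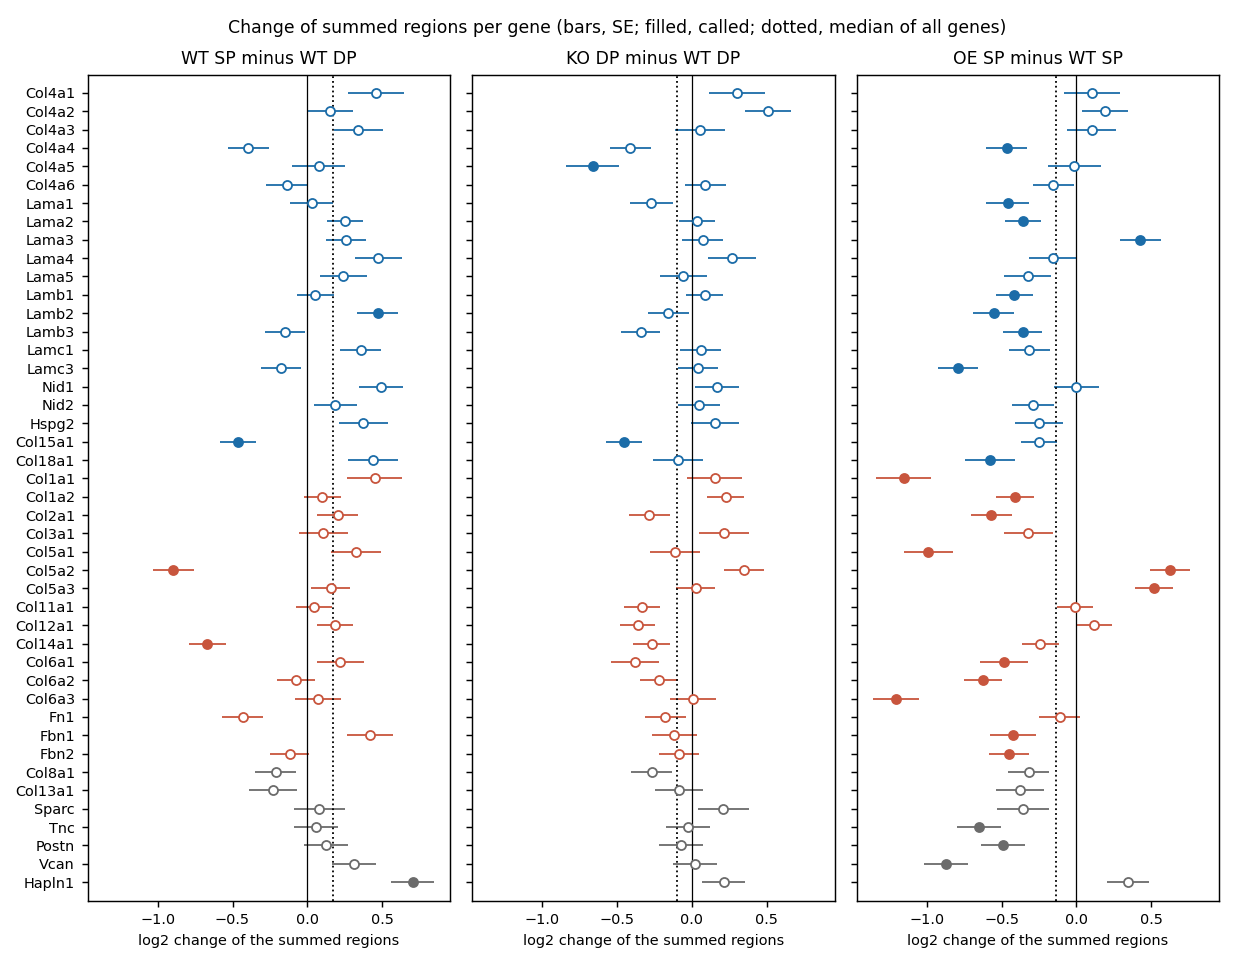
Log2 change of the summed regions of each gene (horizontal axis, log2(sum + 5)) in the 3 comparisons; points are estimates, bars their SE, filled points were called at a limma adjusted p below 0.05 and the dotted line is the median of all genes. Col6a3, Col1a1 and Col5a1 lie at -1.20, -1.16 and -0.99 in OE SP minus WT SP, and Col5a2 at -0.89 in WT SP minus WT DP and 0.62 in OE SP minus WT SP.

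Genes that make, cut or bind the matrix were counted from lists. Of 294 tested regions at 19 matrix receptor genes, mainly integrins, 28 were higher and 17 lower in WT SP than WT DP, 6 and 5 in KO DP than WT DP, and 63 and 101 in OE SP than WT SP. The receptor region of lowest p in OE SP lay beside Itga6, the alpha chain of a laminin-binding integrin (chr2:71779551-71779951), at 19.3 and 19.8 (WT SP) and 185 and 246 (OE SP) (log2 change 3.15, limma adjusted p = 4.88e-06). Inside Itga5, the alpha chain of the fibronectin receptor, chr15:103361354-103361754 held 516 and 529 (WT DP) and 142 and 151 (WT SP) (log2 change -1.80, limma adjusted p = 0.000784). Of 141 regions at 15 collagen processing and crosslinking genes, 11 were higher and 7 lower in WT SP, 2 and 3 among KO DP calls, and 16 and 53 among OE SP calls. Loxl1, a crosslinking oxidase, fell in OE SP at chr9:58294490-58294890 from 256 and 278 to 19.7 and 46.0 (log2 change -2.94, limma adjusted p = 1.17e-05). Of 111 regions at 10 protease and inhibitor genes, 7 were higher and 10 lower in WT SP, 2 and 0 among KO DP calls, and 18 and 36 among OE SP calls. Mmp2, a protease that cuts type IV collagen, fell in OE SP at chr8:92785513-92785913 from 232 and 207 to 10.2 and 22.3 (log2 change -3.46, limma adjusted p = 4.39e-06). As shares of the regions tested, OE SP against WT SP had 21.4% higher and 34.4% lower at receptors, 11.3% and 37.6% at processing genes, and 16.2% and 32.4% at proteases and inhibitors, against 16.6% and 31.9% of all regions. WT SP against WT DP had 9.52% and 5.78%, 7.80% and 4.96%, and 6.31% and 9.01% in the same order of lists, against 6.2% and 8.12%. KO DP against WT DP had 2.04% and 1.70%, 1.42% and 2.13%, and 1.80% and 0%, against 1.72% and 2.21%. No test was made of these differences from all regions.

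Markers of other cell types moved with these groups. Regions of all 10 endothelial marker genes took 0.661 to 0.672 per 1000 normalized reads in WT DP, 0.752 to 0.768 in WT SP, 0.611 to 0.618 in KO DP and 1.29 to 1.46 in OE SP, with 61 higher and 39 lower of 180 regions in OE SP. Regions of 6 of 8 fibroblast marker genes (Lum and Fap had none) took 0.358 to 0.367 in WT DP, 0.378 to 0.383 in WT SP, 0.347 to 0.364 in KO DP and 0.265 to 0.307 in OE SP, with 7 higher and 34 lower of 79. Regions of all 11 endoderm marker genes, a lineage that makes much type IV collagen and laminin, took 0.482 to 0.492 in WT DP, 0.511 to 0.513 in WT SP, 0.458 to 0.469 in KO DP and 0.601 to 0.633 in OE SP, with 25 higher and 35 lower of 121. As shares of the regions tested, OE SP against WT SP had 33.9% higher and 21.7% lower at endothelial markers, 8.86% and 43.0% at fibroblast markers, and 20.7% and 28.9% at endoderm markers, against 16.6% and 31.9% of all regions. No marker gene with a region had a summed value of 0 in any library. OE SP thus had the highest endothelial and endoderm sums and the lowest fibroblast sum, and the part of these shifts in the matrix results was not tested.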

How the data were processed

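ATAC-seq values for 8 libraries, 2 in each of 4 groups, were read from a deposited table of 168842 regions. Its values are a signal, normalized reads per region made by the authors; per the submitters' processing notes the tools were Bowtie2, MACS2 and DiffBind 3.14.1 on mm10, in roles not given. How the scaling factor was set, and from which libraries the peaks came, was not given in the sources used here. The values came out as whole multiples of a step in each library, within 0.01 reads, so reads could be recovered (12477601 to 18853733 a library).

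Regions were tied to the nearest protein-coding gene span of RefSeq on GRCm38.p6, inside it or within 100 kb. Regions were tested on log2(value + 5) by limma (version 3.58.1, R version 4.3.3), with 4 group means in 1 fit and a mean-variance trend, over regions with a mean of at least 10. A second fit used the summed regions of 18534 genes. Benjamini-Hochberg adjustment ran over all regions or genes. This log2 scale is not that of the deposited signal. Scripts were tested on simulated data. The alternatives were 2 rescalings, another pseudocount, no filter, edgeR 4.0.16 on recovered reads, the compared groups alone, a replicate block, each library left out and a 10 kb limit.

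For each comparison the named regions were the called region of lowest adjusted p of each gene, for up to 10 basement membrane, 8 fibrillar and 4 other genes, together with the region of highest mean of 13 chosen genes. Regions over the printed promoters of Nid1, Lama5, Vcan and Col5a3 were chosen after their values were seen, as were values repeated from another comparison. The 44 genes and all lists were chosen with earlier results of these data known.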

Additional observations from a re-analysis of the deposited data

How the results depend on the processing

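The naming rule gave 23 called regions in WT SP, 13 in KO DP and 29 in OE SP. None of these calls, and no called gene sum, changed direction under the alternatives run. Nor did the called promoter regions of Lama5, Vcan and Col5a3 or the regions at Itga6, Itga5, Loxl1 and Mmp2. Most of these regions were picked for a low adjusted p in these data, which makes a change of direction unlikely. The counts below include those that moved by more than 1.5 times. With median-of-ratios rescaling, 19 regions were higher in KO DP, against 2.57% of all regions. Summed genes then numbered 6 higher and 7 lower in WT SP, 3 higher in KO DP, and 7 higher and 12 lower in OE SP. Of all genes, 7.97% and 8.29%, 5.85%, and 30.8% and 15.9% were called in the same order. With rescaling on the 10000 highest regions, 105 regions were lower in WT SP and 26 higher in KO DP, against 13.3% and 3.68% of all regions. Summed genes numbered 13 lower in WT SP, 9 higher in KO DP and 6 higher in OE SP, against 18.2%, 10.4% and 25.6% of all genes. The fit of the compared groups alone leaves 2 residual degrees of freedom. It called 193 regions higher and 118 lower in WT SP, against 22.4% and 15.5% of all regions. In KO DP it called 85 higher and 80.0 lower, against 8.89% and 13.1%. Summed genes numbered 21 higher and 9 lower in WT SP, against 49.8% and 11% of all genes. They numbered 8 higher and 13 lower in KO DP (8.74% and 27% of all genes) and 12 lower in OE SP (16.2%). With pseudocount 1, 1 summed gene was higher in WT SP, against 4.07% of all genes. With a 10 kb limit, 42 regions were lower in WT SP, and 1 summed gene was higher in WT SP and 1 in KO DP, against 4.75% and 1.96% of all genes. edgeR on recovered reads called 79 regions higher and 70.0 lower in WT SP, 13 and 9 among KO DP regions, and 124 and 297 among those of OE SP. Its shares of all regions were 6.96% and 9.01%, 2.22% and 2.66%, and 17.1% and 31.5%. Deviations of same-numbered libraries correlated between groups at r = -0.004 to 0.056, so no shared deviation by number was seen. Such a correlation cannot show whether samples were paired. The numbers are those of the sample titles, and the library names of KO DP carry others. With the replicate block, 76 regions were higher and 61 lower in WT SP, 11 and 7 among KO DP regions, and 120.0 and 296 among those of OE SP. Of all regions, 6.19% and 7.9%, 1.62% and 1.85%, and 16.4% and 31.4% were called in the same order. Summed genes numbered 4 higher in WT SP and 1 higher in KO DP, against 5.06% and 2.44% of all genes. Leaving out each library in turn, with a lone library assumed to vary like the other groups, gave 8 to 15 higher and 17 to 25 lower regions in WT SP, 2 to 4 higher and 0 to 2 lower in KO DP, and 75 to 153 higher and 207 to 350.0 lower in OE SP. Summed genes then numbered 0 to 1 higher and 1 to 2 lower in WT SP, 0 higher and 0 lower in KO DP, and 1 to 7 higher and 8 to 34 lower in OE SP. The causes were not tested. DESeq2 was not run.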
